A study of Mus musculus with 34 samples.

Results

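Sowahd, Tmem255a, Olig1, Oit3, Stbd1 and Anxa13 are 6 of the 33370 genes measured on the arrays, chosen as genes whose signal fell most with dnRARa, relative to control virus, in seminiferous tubules of stages IV-VI and VII-VIII. dnRARa is a retinoic acid receptor alpha made dominant negative. The members were chosen by their fall in those stages, so the values of that comparison are given here as a description, with no test. When the difference between dnRARa and Venus was averaged over those stages, Sowahd ranked 1, Tmem255a 3, Olig1 4, Oit3 5, Stbd1 8 and Anxa13 16 among 13406 genes with a symbol. This average describes the choice and need not be the measure that made it. The genes at the ranks between them are not members. The members had also been called stage genes with earlier results of these data known.

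The series holds 34 one-colour arrays in 17 groups of 2 biological duplicates, all from C57BL6/j mice of 6 to 8 weeks. Seminiferous tubules of 4 stage groups (I-III, then IV-VI, then VII-VIII, and lastly IX-XII of the cycle of the epithelium) were taken in 3 arms: 5 days after a lentivirus carrying dnRARa was injected into the testis, 5 days after one carrying the fluorescent protein Venus, and without treatment. Sample titles write VI-VIII where source names write VII-VIII for the third stage group. The other groups were primary Sertoli cells cultured for 24 hours with retinoic acid (RA, 1 mM according to the labels) or with vehicle, Sertoli cells sorted by flow cytometry from Nanos3-knockout (N3KO) testes or from wild-type (WT) testes, and whole testes. The promoter that drives the viral insert and the marker used for sorting are not given in the labels, and tubules and whole testes are mixtures of Sertoli, germ and other cells. In such bulk samples fewer cells of a type and less RNA per cell cannot be told apart.

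RA enters the nucleus, binds RAR and RXR receptors on DNA and switches their target genes on. In the testis it acts on both germ cells and Sertoli cells, the somatic cells that nurse them, and its action varies along the cycle of the seminiferous epithelium. A dominant negative receptor occupies the same DNA sites without responding to the ligand. The members come from different families. Sowahd encodes a protein with ankyrin repeats, Tmem255a a transmembrane protein, and Olig1 a basic helix-loop-helix transcription factor known from the oligodendrocyte lineage. Oit3 encodes a secreted protein with a zona pellucida domain known from liver, Stbd1 a glycogen-binding protein that tethers glycogen to membranes, and Anxa13 a calcium-dependent phospholipid-binding annexin known from intestinal and kidney epithelium.

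Promoters are shown for Sowahd and Tmem255a because these members fell furthest and had profiles among the most alike. Both genes lie on the X chromosome, with 43 other protein-coding genes between them in the RefSeq annotation. The windows run from 250 bases before to 50 bases after the start of the gene and come from RefSeq on build GRCm38.p6. Sowahd is at chrX:37048595-37048894 on the plus strand and Tmem255a at chrX:38252432-38252731 on the minus strand, each written 5′ to 3′ along the gene. Capitals mark a match, on either strand, to a receptor half-site spelled AGGTCA or AGTTCA or GGGTCA or GGTTCA.
Sowahd: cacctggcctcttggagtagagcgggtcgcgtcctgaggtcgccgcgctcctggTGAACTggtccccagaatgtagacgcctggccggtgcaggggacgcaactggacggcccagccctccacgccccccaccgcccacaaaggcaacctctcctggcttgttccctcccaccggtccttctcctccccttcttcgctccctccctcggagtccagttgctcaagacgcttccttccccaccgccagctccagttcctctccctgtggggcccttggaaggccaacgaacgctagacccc
Tmem255a: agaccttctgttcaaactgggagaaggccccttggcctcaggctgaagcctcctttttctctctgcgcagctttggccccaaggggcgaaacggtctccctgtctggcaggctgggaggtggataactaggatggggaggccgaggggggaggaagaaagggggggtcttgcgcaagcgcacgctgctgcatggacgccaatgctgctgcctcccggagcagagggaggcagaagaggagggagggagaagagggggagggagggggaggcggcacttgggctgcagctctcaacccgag
The Sowahd window held 1 half-site, AGTTCA read on the opposite strand, which starts 196 bases before the start of the gene. The Tmem255a window and that of Stbd1, the third member with an entry in the table, held none. Of 32851 promoter windows of this length in the table, 43.7% held at least 1 of the 4 spellings on either strand and 14% held AGTTCA. Pairs of half-sites with 5 bases between them stood in 0.0974% of windows, with 2 bases in 0.268% and with 1 base in 0.222%, and in none of the 3 member windows. These matches are letters in a window and not binding sites.

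Every value below is the log2 processed signal of 1 probe minus the array's 75th percentile (log2), so 0 is the level of a probe at the 75th percentile, and a difference of 1 is a 2-fold ratio. Differences are given with their standard error (SE) from limma, and adjusted p-values are Benjamini-Hochberg values over all genes tested in that comparison, with a threshold of 0.05. The share of spots well above background was 54.9% to 74.4% per array. Replicate arrays correlated at r from 0.974 to 0.996 across genes. With 2 arrays per group the number of arrays limits the precision, and the p-values measure the spread between these duplicates. Sowahd was well above background on 31 of 34 arrays, Tmem255a on 33, Oit3 on 31, Stbd1 on 30, Anxa13 on 21 and Olig1 on 20.

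In stages IV-VI and VII-VIII, whose dnRARa and Venus arrays chose the members, the 6 genes were lower with dnRARa by very different amounts. Sowahd read -7.30 and -7.30 in dnRARa tubules of stages IV-VI, both not well above background, against -1.72 and -2.44 in Venus tubules. The difference of the measured means was -5.22 (SE 0.48), and the bound on the ratio was at least 16.2-fold lower. In stages VII-VIII Sowahd read -6.36 and -6.79 with dnRARa, the second not well above background, against -2.17 and -3.19 with Venus, a difference of -3.90 (SE 0.48). The arms did not overlap at either stage, and Sowahd was at or near the detection limit with dnRARa.

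Tmem255a read -5.01 and -5.75 in dnRARa tubules of stages IV-VI, the second not well above background, against -0.83 and -1.67 in Venus tubules. In stages VII-VIII it read -3.64 and -3.80 with dnRARa against -0.44 and -1.30 with Venus. The differences were -4.12 (SE 0.48) and -2.85 (SE 0.49), and the arms were well apart at both stages. A second, dimmer Tmem255a probe differed by -1.16 in stages IV-VI, where it was above background on 1 of 2 dnRARa arrays, and by -1.23 in stages VII-VIII, so the 2 probes gave unequal falls.

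Olig1 read -8.87 and -7.23 in dnRARa tubules of stages IV-VI, neither well above background, against -4.14 and -4.93 in Venus tubules, which bounds the ratio at least 2.96-fold lower. In stages VII-VIII it read -8.92 and -8.00 with dnRARa, again not well above background, against -4.56 and -5.56 with Venus, at least 2.82-fold lower. With dnRARa Olig1 was not well above background on any of these 4 arrays, so the sizes of its falls are bounds and not measurements. Oit3 read -7.24 and -7.20 with dnRARa in stages IV-VI, both not well above background, against -3.61 and -4.61 with Venus, at least 3.98-fold lower. In stages VII-VIII Oit3 was measurable in both arms, at -5.63 and -5.69 with dnRARa against -3.52 and -4.17 with Venus, a difference of -1.81 (SE 0.75). A second, dimmer Oit3 probe gave smaller differences. It differed by -1.38 in stages IV-VI, where it was well above background on 0 of 2 dnRARa arrays. In stages VII-VIII it differed by -0.79, with 1 of 2 dnRARa arrays well above background.

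Stbd1 differed more in the later of these stage groups. It read -4.11 and -4.72 in dnRARa tubules of stages VII-VIII against -1.11 and -2.12 in Venus tubules, a difference of -2.80 (SE 0.57). In stages IV-VI it read -5.20 and -6.60 with dnRARa, the second not well above background, against -3.96 and -4.50 with Venus, a difference of -1.67 (SE 0.57). Anxa13 did the reverse. It read -5.33 and -7.19 with dnRARa in stages IV-VI, the second not well above background, against -2.96 and -3.39 with Venus, a difference of -3.08 (SE 0.54). In stages VII-VIII, however, it read -5.94 and -5.53 with dnRARa against -4.96 and -5.87 with Venus, the arms overlapped, and the difference was -0.32 (SE 0.54). The fall that places Anxa13 among the members therefore rests on stages IV-VI. Its second probe differed by -1.83 there, well above background on 1 of 2 dnRARa arrays, and by -0.0017 in stages VII-VIII. Over all genes, 3.35% were past the threshold in stages IV-VI and 1.52% in stages VII-VIII, and nothing is read from the members' count in the comparison that chose them.

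**Figure D1:**
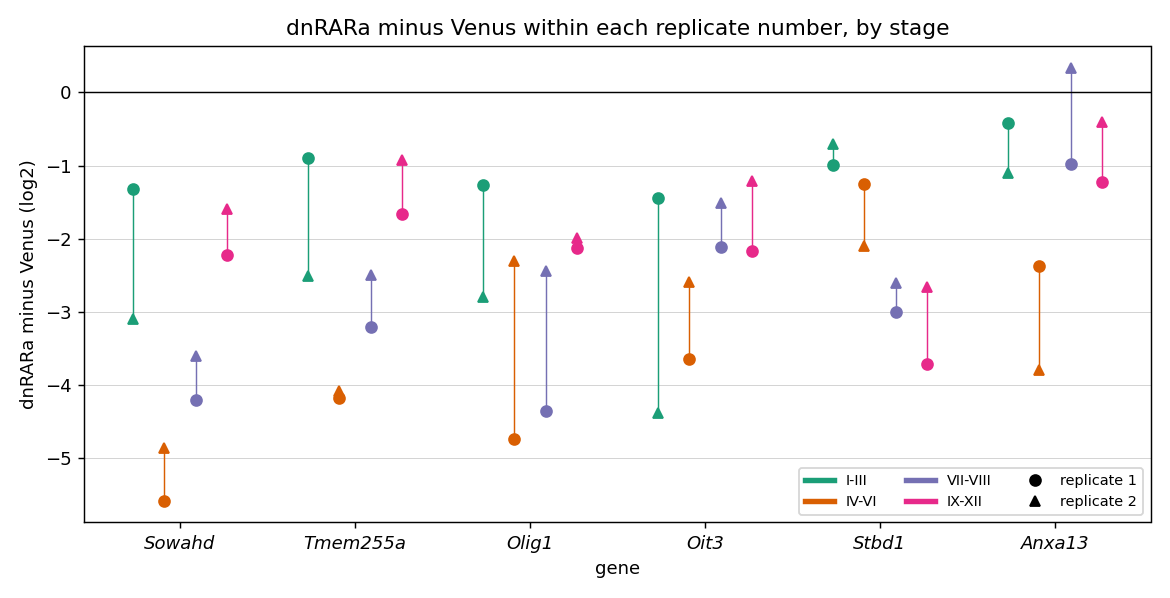
dnRARa minus Venus difference (log2, y axis) for each member (x axis) and stage group (colour), with replicate 1 as circles and replicate 2 as triangles; each pair was scanned on the same day. The points of stages IV-VI and VII-VIII come from the arrays that chose the members, and the 1 point above 0 is Anxa13 in stages VII-VIII in replicate 2, at 0.34.

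The comparison of dnRARa with Venus in stages I-III and IX-XII used arrays that did not choose the members. Within each arm and replicate number, however, these arrays shared slide and scan day with the arrays that did. The comparison is therefore not fully independent of the choice. In stages IX-XII all 6 members were lower with dnRARa and none of the arms overlapped, as was so for 26.9% of all genes tested. Stbd1 and Sowahd passed the threshold, against 4.67% of 23097 genes past it in either direction and 1.55% past it as lower. Over all genes tested the median difference was 0.05, against -1.80 for the members. Stbd1 read -4.19 and -3.37 in dnRARa tubules and -0.48 and -0.72 in Venus tubules, a 9.09-fold fall (difference -3.18, SE 0.57, adjusted p = 0.00513). Sowahd read -1.37 and -0.77 with dnRARa and 0.85 and 0.83 with Venus, a 3.76-fold fall (difference -1.91, SE 0.48, adjusted p = 0.0361). For both genes every dnRARa array lay below every Venus array. The Sowahd call ended whenever any 1 of the 4 arrays was left out, with adjusted p from 0.1 to 0.201, and also without the detection filter (adjusted p = 0.066), with quantile scaling (adjusted p = 0.0561) and with 1 model for all arrays (adjusted p = 0.0783). The Stbd1 call ended without replicate 1 of Venus (adjusted p = 0.0628) or of dnRARa (adjusted p = 0.0571).

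The other 4 members did not pass in stages IX-XII. Olig1 read -4.06 and -3.68 in dnRARa tubules and -1.94 and -1.69 in Venus tubules (difference -2.06, SE 0.65, adjusted p = 0.0917). Oit3 differed by -1.69 (SE 0.75), Tmem255a by -1.29 (SE 0.49) and Anxa13 by -0.81 (SE 0.54). At these stages each of the 4 was well above background on both dnRARa arrays.

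In stages I-III no member passed the threshold in the limma fit, where 0.00896% of 22327 genes did and 1527 had an unadjusted p under 0.05. All 6 members were lower with dnRARa, by 0.76 to 2.91, where 49% of all genes were. Among them the arms overlapped only for Stbd1, and 20.7% of all genes were lower without overlap. Sowahd read -2.60 and -4.56 with dnRARa against -1.28 and -1.47 with Venus (difference -2.20, SE 0.48, adjusted p = 0.154). Oit3 read -4.39 and -7.83 with dnRARa, the second not well above background, against -2.95 and -3.46 with Venus (difference -2.91, SE 0.74, adjusted p = 0.262). The dnRARa duplicates lay far apart for Sowahd, Oit3, Olig1 and Tmem255a, and replicate 2 was the lower one each time. Without dnRARa replicate 1 the differences of these 4 members were -3.19, -4.63, -3.13 and -2.60. Oit3 and Olig1 were not well above background on the remaining dnRARa array, so their differences there end at the detection limit. Without dnRARa replicate 2 the 4 differences were smaller, at -0.93 for Olig1. Oit3 and Olig1 entered the test in stages I-III only through Venus, where they were high, so the filter favoured a fall. A test of whether the fall differed between stages IX-XII and I-III gave no call for any member. The largest such difference was that of Stbd1, at -2.33 (SE 0.81, adjusted p = 0.419), and 68 of 23333 genes passed that test.

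Each dnRARa array shared its scan day with the Venus array of the same replicate number but lay on another slide. Each slide held 1 arm, so slide cannot be told apart from dnRARa. With slide as a random block 0 members passed in stages I-III and 2 in stages IX-XII, as without it, and this block cannot separate slide from arm. Marker genes of 8 testis cell types were summed in the same arms. In stages IV-VI the summed level of 14 Sertoli markers was 6.63 to 6.78 with dnRARa and 6.57 to 6.79 with Venus, and that of 13 spermatid markers was 9.80 to 9.80 with dnRARa and 10.11 to 10.33 with Venus, without overlap. The sum of 5 peritubular myoid markers there was 3.85 to 3.86 with dnRARa and 4.27 to 4.31 with Venus. The myoid sum was also lower in stages I-III (4.13 to 4.34 with dnRARa, 4.51 to 4.52 with Venus) and VII-VIII (3.85 to 4.21 and 4.23 to 4.41). In stages VII-VIII the spermatid sum was higher with dnRARa, at 10.30 to 10.68 against 10.15 to 10.17 with Venus. So was the spermatocyte sum, at 8.40 to 8.81 against 8.27 to 8.33. In stages IX-XII the Sertoli sum was 6.19 to 6.42 with dnRARa and 6.13 to 6.16 with Venus. The spermatid sum there was 10.36 to 10.79 with dnRARa and 10.33 to 10.44 with Venus. In stages IX-XII 4 other lists summed lower with dnRARa without overlap. The spermatogonial sum averaged 4.73 with dnRARa and 5.10 with Venus, and the Leydig sum was 4.64 to 4.71 with dnRARa and 5.05 to 5.26 with Venus. The myoid sum was 4.62 to 4.79 with dnRARa and 4.88 to 5.05 with Venus, and the macrophage sum averaged 2.03 with dnRARa and 2.26 with Venus. The part of cell makeup in the members' falls was not tested. Rara, the receptor gene itself, was 0.67 higher with dnRARa in stages I-III (SE 0.30, adjusted p = 0.678) and 0.82 higher in stages IX-XII (SE 0.30, adjusted p = 0.151), and its probe need not detect the viral insert.

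In untreated tubules Sowahd, Tmem255a, Olig1 and Oit3 rose and fell along the cycle together, with a trough around stages IV-VI and the highest level in stages IX-XII. Sowahd read -0.57 and -0.23 in stages I-III, -3.03 and -2.81 in IV-VI, -3.26 and -2.76 in VII-VIII and 0.10 and 0.45 in IX-XII. It stayed low through both middle stage groups, which overlapped. Tmem255a read 0.55 and 0.81 in stages I-III, -1.96 and -2.0 in IV-VI, -0.39 and 0.06 in VII-VIII and 1.44 and 2.21 in IX-XII, and no neighbouring groups overlapped. Oit3 read -1.45 and -1.27, then -3.69 and -4.52, then -2.58 and -2.28, then -0.23 and 0.57 over the same series. Olig1 was well above background only at the ends of it, with -3.95 and -3.46 in stages I-III and -2.83 and -3.19 in stages IX-XII, and not on any of the 4 arrays between.

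**Figure D2:**
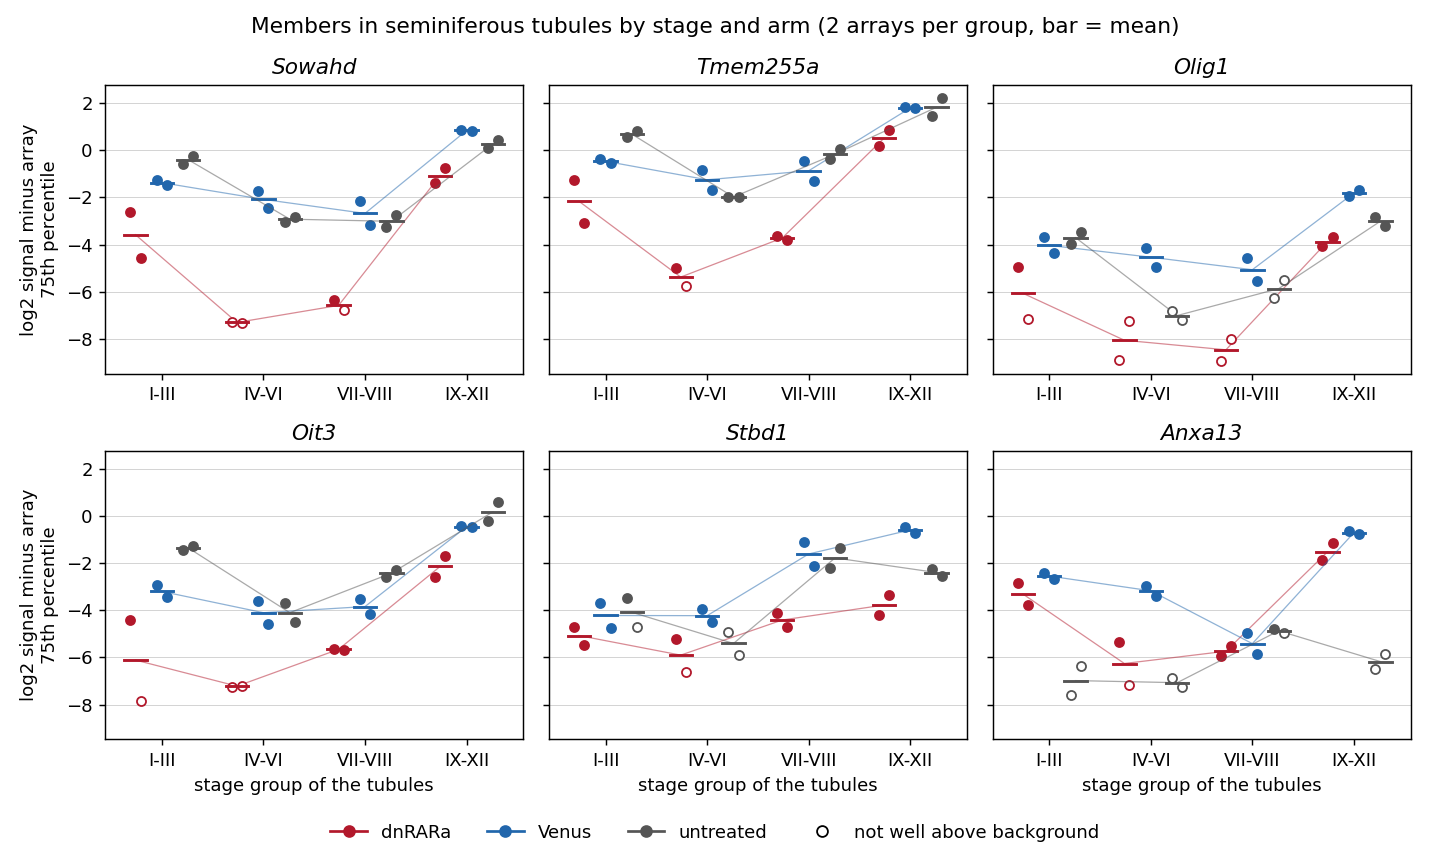
Level of each member (log2 signal minus the array's 75th percentile, y axis) by stage group (x axis) in dnRARa, Venus and untreated tubules; points are arrays, bars are means of 2, and open points are not well above background. In stages IV-VI the dnRARa arrays of Sowahd, Tmem255a, Oit3 and Olig1 lie below both other arms. Most of these dnRARa points are open, as are the untreated points of Olig1 there. All 6 members are highest in stages IX-XII in the dnRARa and Venus arms.

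From stages I-III to IV-VI these 4 members fell, all 4 that were tested. Over all genes 22.3% of 18564 passed in either direction and 10.3% as lower. The members had been called stage genes beforehand, so the tests between untreated stages and their counts are not independent of the choice. Olig1 entered this test only through stages I-III, where it was high, so the filter favoured a fall. The falls were 5.73-fold for Sowahd (difference -2.52, SE 0.47, adjusted p = 0.00219), 6.34-fold for Tmem255a (difference -2.66, SE 0.48, adjusted p = 0.00159), 6.72-fold for Oit3 (difference -2.75, SE 0.73, adjusted p = 0.0146) and at least 2.62-fold for Olig1 (adjusted p = 0.00244). With only the 4 arrays compared in the fit, none passed (adjusted p = 0.0709 for each), and the Oit3 call also ended without either stage I-III array (adjusted p = 0.0516 and 0.0728) or without replicate 2 of stages IV-VI (adjusted p = 0.11), and with normexp correction (adjusted p = 0.0999). These stage groups lay on different slides, as did stages IV-VI and VII-VIII and stages I-III and IX-XII, and slide cannot be told apart from stage there. Stbd1 and Anxa13 were not well above background on both arrays of either group and were not tested.

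From stages IV-VI to VII-VIII, Stbd1 and Tmem255a rose, 2 of 4 members tested, where 42.3% of 19182 genes passed in either direction and 22% as higher. Stbd1 entered this test only through stages VII-VIII, where it was high, so the filter favoured a rise. Stbd1 read -4.93 and -5.88 in stages IV-VI, both not well above background, and -2.22 and -1.35 in stages VII-VIII, at least 9.93-fold higher (adjusted p = 0.000138). Tmem255a rose by 1.82 (SE 0.48, adjusted p = 0.00657), a call that ended without replicate 2 of stages VII-VIII (adjusted p = 0.058). Oit3 was 1.68 higher (SE 0.73, adjusted p = 0.0808) and Sowahd differed by -0.09 (SE 0.48, adjusted p = 0.901).

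From stages VII-VIII to IX-XII, on arrays that shared 1 slide, Sowahd, Olig1, Tmem255a and Oit3 rose, 4 of 5 members tested. Over all genes 49.8% of 18892 passed and 25.3% passed as higher. Here Olig1 entered only through stages IX-XII, where it was high, so the filter favoured a rise. Sowahd rose 9.75-fold (difference 3.29, SE 0.48, adjusted p = 4.66e-05), Oit3 6.06-fold (difference 2.60, SE 0.73, adjusted p = 0.00835), Tmem255a 3.97-fold (difference 1.99, SE 0.48, adjusted p = 0.00292) and Olig1 at least 4.45-fold (adjusted p = 0.00167). The Oit3 call ended without replicate 1 of stages VII-VIII (adjusted p = 0.0519) or replicate 2 of stages IX-XII (adjusted p = 0.0689). Stbd1 read -2.25 and -2.56 in stages IX-XII and differed by -0.62 from stages VII-VIII (SE 0.56, adjusted p = 0.385). Olig1 depended on the background correction: with normexp correction its difference was 0.69 between stages IV-VI and I-III and -0.17 between stages IX-XII and VII-VIII, the opposite signs.

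Stages I-III were lower than stages IX-XII for all 6 members, and only Stbd1 passed, where 34.9% of 18215 genes did in either direction and 20.2% as lower. Here Stbd1 entered only through stages IX-XII, where it was high, so the filter favoured a lower level in stages I-III. Stbd1 read -3.48 and -4.69 in stages I-III, the second not well above background, against -2.25 and -2.56 in stages IX-XII (difference -1.68, SE 0.56, adjusted p = 0.0305). The call ended without replicate 2 of stages I-III or without either array of stages IX-XII, with adjusted p from 0.0746 to 0.276, and also without the detection filter (adjusted p = 0.0683) and with only the arrays compared (adjusted p = 0.127). For Sowahd, Olig1, Tmem255a and Oit3 the groups did not overlap either, at differences of -0.68, -0.69, -1.14 and -1.53 that did not pass, and 33.4% of all genes tested were lower without overlap. Anxa13 was not well above background on 7 of 8 untreated tubule arrays, so no stage profile is given for it in this arm, and its second probe, of nearly equal signal, differed by 1.86 between stages IV-VI and I-III where the first differed by -0.09.

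The stage profiles of the virus arms are given here as a description because their middle stages chose the members. All 6 members were highest in stages IX-XII with dnRARa and with Venus, and the stages IX-XII arrays lay clear of all other stages for 5 members with dnRARa and 6 with Venus. In untreated tubules, in contrast, Stbd1 was highest in stages VII-VIII. The span between the highest and the lowest stage mean was 2.12 to 6.23 with dnRARa, 3.05 to 4.71 with Venus and 2.20 to 4.28 in untreated tubules, and the dnRARa spans of 3 members end in values not well above background on either array, as do the untreated spans of 3. In dnRARa tubules Sowahd was at -1.07 on average in stages IX-XII and -7.30 in stages IV-VI.

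Venus virus alone was compared with no treatment. Anxa13, at or under the detection limit in untreated tubules, was the member that differed most. It read -2.43 and -2.67 in Venus tubules of stages I-III, against -7.59 and -6.38 in untreated tubules, neither well above background, at least 5.80-fold higher (adjusted p = 1.99e-05). In stages IX-XII it read -0.66 and -0.76 with Venus against -6.49 and -5.86 without treatment, again not well above background, at least 16.1-fold higher (adjusted p = 3.31e-06). At these stages all 4 Venus arrays lay far above all 4 untreated ones. Anxa13 entered these tests only through its Venus arrays, so the filter favoured a rise. A second Anxa13 probe was 2.09 and 2.99 higher in the same comparisons. The middle stages, whose Venus arrays chose the members, are described without a test. Anxa13 read -2.96 and -3.39 with Venus in stages IV-VI against -6.88 and -7.26 untreated, and -4.96 and -5.87 with Venus in stages VII-VIII against -4.79 and -4.96 untreated. The difference had the opposite sign in stages VII-VIII, and the second probe differed by -0.43 in stages IV-VI and -0.11 in stages VII-VIII. Anxa13 was the 1 member past the threshold in stages I-III, where 43.1% of 22047 genes were in either direction and 26.2% as higher.

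In stages IX-XII Stbd1 passed as well, 2 of 6 members, against 41.9% of 21969 genes in either direction and 21.7% as higher. It read -0.48 and -0.72 with Venus and -2.25 and -2.56 without treatment (difference 1.81, SE 0.57, adjusted p = 0.02), and the call ended without either Venus array or without replicate 2 of the untreated ones (adjusted p from 0.0643 to 0.101) and with normexp correction (adjusted p = 0.0744). Sowahd, Tmem255a and Oit3 were lower with Venus in stages I-III, by 0.97, 1.15 and 1.85, and did not pass (adjusted p = 0.116, 0.0683 and 0.0576). Venus and untreated arrays shared no slide or scan day, so neither can be told apart from the virus here. With slide as a random block 1 member passed in stages I-III and 2 in stages IX-XII, as without it. Such a block cannot separate slide from virus. Macrophage markers moved with the same comparison: the summed level of 7 markers was 1.83 to 2.06 with Venus and 0.64 to 1.45 untreated in stages I-III, and 2.18 to 2.33 with Venus and 0.61 to 1.30 untreated in stages IX-XII, with 6 of 7 higher past the threshold in each. Of 14 Sertoli markers 8 and 10 were higher past the threshold. The part of these in the Anxa13 and Stbd1 results was not tested.

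In cultured Sertoli cells RA raised Tmem255a. It read 5.03 and 5.05 with RA and 0.28 and 0.17 with vehicle. The duplicates differed by at most 0.11 within a group, and the groups were 4.82 apart (SE 0.21), a 28.2-fold rise (adjusted p = 0.000108), and the second Tmem255a probe was 4.88 higher. Spermatogonial markers moved with RA as well: their summed level was 6.74 to 6.76 with RA and 4.87 to 4.95 with vehicle, and 2 of 7 tested, Uchl1 and Stra8, were higher past the threshold. The endothelial sum was -1.29 to -1.21 with RA and -0.44 to -0.40 with vehicle. Their part in the Tmem255a result was not tested. Tmem255a was the 1 member of 5 tested past the threshold, where 5.49% of 20078 genes passed and 3.51% as higher. With RA it stood at its highest level of all 17 groups. No other member passed, and their differences had both signs.

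Stbd1 read -0.04 and 0.06 with RA and -1.70 and -1.62 with vehicle (difference 1.67, SE 0.51, adjusted p = 0.135). Sowahd read 1.66 and 1.80 with RA and 0.80 and 0.61 with vehicle (difference 1.03, SE 0.73, adjusted p = 0.573). Anxa13 was lower, at -2.49 and -2.51 with RA and -1.60 and -1.66 with vehicle (difference -0.87, SE 0.60, adjusted p = 0.551). For these 3 genes the RA and vehicle arrays did not overlap, as for 74.2% of all genes tested, and the SE is that of a spread shared by all 5 testis and Sertoli groups, which holds the N3KO duplicates of Sowahd at 0.01 and -2.62. When only the 4 cultured arrays entered the fit, all 3 passed (Stbd1 adjusted p = 0.000931, Anxa13 0.0018, Sowahd 0.00507) in a fit that called 36% of all genes, and Stbd1 also passed with normexp correction (adjusted p = 0.0107). Oit3 read -5.23 and -5.21 with RA and -5.12 and -5.19 with vehicle (difference -0.06, SE 0.22, adjusted p = 0.949). Olig1 was not well above background on any of the 4 cultured arrays and was not tested.

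**Figure D3:**
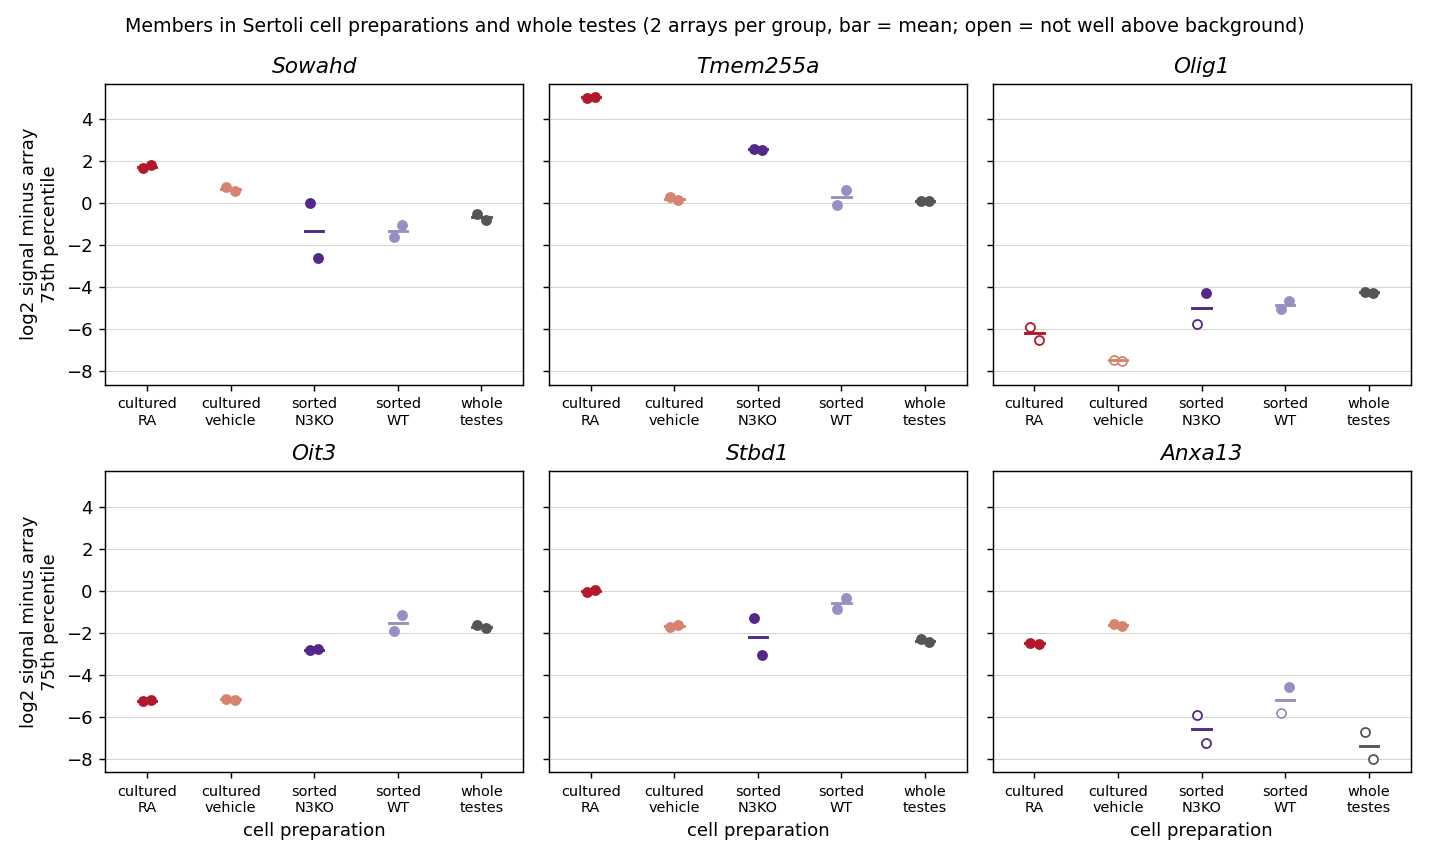
Level of each member (log2 signal minus the array's 75th percentile, y axis) in cultured Sertoli cells with RA or vehicle, in sorted N3KO and WT Sertoli cells and in whole testes (x axis); points are arrays, bars are means of 2, and open points are not well above background. Tmem255a is at 5.03 and 5.05 with RA, above all its other arrays shown, and Oit3 is lower in the cultured cells than in the sorted cells and whole testes.

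Of 12 textbook RA targets measured, 10 were tested in the same cultures and 8 rose. The RA-degrading enzyme gene Cyp26a1 was at least 661-fold higher with RA (adjusted p = 0.000437), Dhrs3, a retinaldehyde reductase, 5.21 higher (SE 0.12) and Stra8, the germ cell gatekeeper of meiosis, 3.91 higher (SE 0.11). Between dnRARa and Venus tubules of stages IX-XII Cyp26a1 differed by -2.14 (SE 0.72, adjusted p = 0.119), Dhrs3 by -0.36 (SE 0.28, adjusted p = 0.561) and Stra8 by 0.17 (SE 0.44, adjusted p = 0.897). Of 11 targets tested there, 1 rose and 2 fell.

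Among the genes related to the members, Anxa9, another annexin, rose with RA in culture by 1.14 (SE 0.20, adjusted p = 0.0214) and fell with dnRARa in stages IX-XII (difference -2.16, SE 0.21, adjusted p = 5.38e-05). Anxa6 rose with RA by 1.65 (SE 0.12, adjusted p = 0.000658). These were the 2 of 10 annexins tested that changed with RA, and in stages IX-XII Anxa9 fell and Anxa2 rose with dnRARa, by 0.53 (SE 0.10, adjusted p = 0.00596). Of the glycogen metabolism genes, to which Stbd1 is joined by function, 1 of 12 tested rose with RA and 1 of 12 fell with dnRARa in stages IX-XII. The first was Epm2a, the glycogen phosphatase laforin, by 0.63 (SE 0.13, adjusted p = 0.0394), and the other was Pygl, a glycogen phosphorylase, at -1.54 (SE 0.18, adjusted p = 0.000164). Of the Sowah family, Sowahb was 0.28 higher with RA (SE 0.59, adjusted p = 0.899). Olig3 differed by 0.18 between dnRARa and Venus in stages IX-XII (SE 0.70, adjusted p = 0.94). Over all genes tested 5.49% passed with RA in either direction and 3.51% as higher. With dnRARa in stages IX-XII 4.67% passed in either direction and 1.55% as lower. With lists this short, nothing is read from the counts of annexin or glycogen genes.

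The sorted cells were used to ask in which preparation each member is present. The Nanos3 probe read -7.11 on average in N3KO cells, not well above background, and -3.80 in WT cells. The 13 spermatid markers summed to between -0.88 and -0.61 in N3KO cells, against 8.98 to 9.62 in WT cells, and all 13 were lower past the threshold. In the N3KO cells Sowahd, Tmem255a, Oit3 and Stbd1 were well above background on both arrays. Olig1 was so on 1 of 2 and Anxa13 on neither. All members but Olig1 were also well above background on all 4 arrays of cultured Sertoli cells. The second, dimmer Oit3 probe was not well above background on any N3KO or cultured array, so the presence of Oit3 there rests on 1 probe. In the cultures the spermatid sum lay between -0.61 and -0.42. Other germ cell markers were higher in the cultures: the 11 spermatocyte markers, all well above background, summed to between 4.44 and 4.81 and the 8 spermatogonial markers to between 4.87 and 6.76. In N3KO cells the spermatocyte markers summed to between -2.69 and -2.05, with as few as 2 of 11 well above background on an array. The spermatogonial markers there summed to between 4.59 and 5.46, against 4.35 to 4.68 in WT cells. As few as 4 of these 8 were well above background on an N3KO array, and Stra8 was not on either. A sum is led by its highest markers and does not count cells. Neither preparation lacked markers of other cells, and the 9 Leydig markers summed to between 9.61 and 10.22 in N3KO cells and between 3.58 and 4.04 in the cultures.

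Between N3KO and WT sorted cells Tmem255a rose and Oit3 and Stbd1 fell, 3 of 5 members tested, where 50.8% of 21477 genes passed. Tmem255a read 2.61 and 2.55 in N3KO cells and -0.07 and 0.63 in WT cells (difference 2.30, SE 0.21, adjusted p = 0.000126). Oit3 read -2.82 and -2.79 in N3KO cells and -1.89 and -1.16 in WT cells (difference -1.28, SE 0.22, adjusted p = 0.00287). With normexp correction the Oit3 difference was -0.24 (adjusted p = 0.561), and the call also ended with only the arrays compared (adjusted p = 0.0611) and with 1 model for all arrays (adjusted p = 0.111). Stbd1 read -1.27 and -3.07 in N3KO cells and -0.85 and -0.32 in WT cells (difference -1.58, SE 0.52, adjusted p = 0.0388), a call that ended without either WT array (adjusted p = 0.0792 and 0.171), with replicate number as a block (adjusted p = 0.0521), with median scaling (adjusted p = 0.072), without the detection filter (adjusted p = 0.0593) and with only the arrays compared (adjusted p = 0.168). Sowahd read 0.01 and -2.62 in the N3KO duplicates, on either side of the WT values of -1.60 and -1.04, so its level in these cells is not settled. The groups lay on different slides, which cannot be told apart from genotype, and all 7 macrophage markers were higher in N3KO cells, with a summed level of 5.37 to 7.33 against 2.80 to 3.67 in WT cells. Their part in the Tmem255a result was not tested.

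Between sorted WT cells and whole testes 1 member of 5 tested passed the threshold, where 79.2% of 22910 genes passed in either direction and 38.9% as higher. Stbd1 read -0.85 and -0.32 in sorted WT cells and -2.31 and -2.42 in whole testes, on the same slide (difference 1.78, SE 0.52, adjusted p = 0.0158). The call ended without either whole testis array or without WT replicate 2, with adjusted p from 0.0542 to 0.0905. The other 4 members tested differed by -0.68 to 0.17 and did not pass. Without WT replicate 1, 4 members passed, where 74.2% of all genes did. The sorted WT cells held more Leydig transcripts than whole testes, with an average summed level of 10.97 against 7.68, and their Sertoli sum of 4.92 to 8.00 spanned the 6.33 to 6.36 of whole testes. Their part in the Stbd1 result was not tested.

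Cultured vehicle cells differed from sorted WT cells in 4 of 6 members, where 74.9% of 22436 genes passed, and in opposite directions. Anxa13 read -1.60 and -1.66 in culture and -5.80 and -4.58 in sorted cells, the first of these not well above background (difference 3.56, SE 0.60, adjusted p = 0.00139). Anxa13 entered the test only through the cultured cells, where it was high, so the filter favoured a rise. Sowahd read 0.80 and 0.61 in culture and -1.60 and -1.04 in sorted cells (difference 2.02, SE 0.74, adjusted p = 0.0404), a call that ended when any 1 of the 4 arrays was left out (adjusted p from 0.0831 to 0.163). Oit3 read -5.12 and -5.19 in culture and -1.89 and -1.16 in sorted cells, a 12.4-fold fall (difference -3.63, SE 0.22, adjusted p = 8.79e-06). Olig1 was at least 3.17-fold lower in culture (adjusted p = 0.00157), which with normexp correction was a difference of -0.22 (adjusted p = 0.698), and the call ended with quantile scaling too (adjusted p = 0.0672). This gene entered the test only through the sorted cells, so the filter favoured a fall. Tmem255a, at 0.28 and 0.17 in culture, lay between the sorted values. The cultures had a slide and scan day of their own, which cannot be told apart from culture.

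Ordered over all 17 groups, the members had different tops. Sowahd was highest in cultured cells with RA (mean 1.73), then in Venus tubules of stages IX-XII (0.84) and in cultured cells with vehicle (0.70). Tmem255a was highest with RA (5.04), then in N3KO cells (2.58) and in untreated and Venus tubules of stages IX-XII (1.83 and 1.80, whose arrays overlapped). Stbd1 too was highest with RA (0.01). Olig1 was highest in Venus tubules of stages IX-XII (-1.81), Oit3 in untreated tubules of stages IX-XII (0.17) and Anxa13 in Venus tubules of stages IX-XII (-0.71).

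The genes whose group means ran most like each member over the 17 groups were found by Pearson's r among 11881 candidates, as a description. The groups share slides and scan days, and the dnRARa arrays that chose the members are among them. For Sowahd they were Tarsl2 (r = 0.92), the fellow member Tmem255a (r = 0.90) and Ocln (r = 0.88), which encodes the tight junction protein occludin. For Tmem255a they were Ocln (r = 0.92), Ccdc69 (r = 0.91) and Slc35f2 (r = 0.91). For Oit3 they included Txk (r = 0.86) and Olig1 (r = 0.86). For Olig1 they were B3galt1 (r = 0.88), Oit3 (r = 0.86) and Cnst (r = 0.83). For Stbd1 they were Grin2c (r = 0.92), Hpse (r = 0.92) and Drp2 (r = 0.90), and for Anxa13 they were Ppargc1a (r = 0.85), Fgl1 (r = 0.83) and Tmem181a (r = 0.79). Within the set, over the 8 Venus and untreated tubule groups alone, Tmem255a and Oit3 ran most alike (r = 0.98), then Sowahd and Olig1 (r = 0.94), and Anxa13 and Oit3 least (r = 0.09).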

How the data were processed

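RNA of 34 mouse samples was hybridised to one-colour Agilent arrays, 1 array each, with Cy3-labelled RNA made from 0.2 µg of total RNA, per the labels. The values are intensities: per the file headers, the authors extracted spots with Agilent Feature Extraction 9.5.3.1 (9.5 per the submitters' processing notes), and the deposited processed intensity is background-subtracted. The deposited series values equal it at all spots, with 0 of 45018 differing, so no scaling between arrays had been applied. Other deposited columns mark spots as well above background, saturated or outliers. Control spots (1639) and outlier spots (32 to 274 per array) were left out, and 41174 probes remained.

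Probes were named from accessions through the RefSeq annotation (22951 probes by accession, 67 by symbol or synonym), giving 33370 genes, 16398 with a symbol. A gene took its probe of highest mean signal. The array's 75th percentile (log2) was subtracted from log2 intensity. limma 3.58.1 in R 4.3.3 (data.table, version 1.17.8) fitted a model to the 10 testis and Sertoli arrays (5 groups) and another to the 24 tubule arrays (12 groups). A gene entered a test if both arrays of 1 or more compared groups showed it well above background, and tests were two-sided, Benjamini-Hochberg adjusted over all genes tested, threshold 0.05. Where only 1 compared group met this, the gene entered through the group where it was high, and the filter favoured that direction. A level not well above background on either array gives a bound, from the lowest level that was well above background on those arrays. The fit was tested on simulated data. Neighbour genes needed group means spanning at least 2 (log2).

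The named genes are the members, 3 check genes (Rara, Stra8 and Cyp26a1), 3 neighbours each and related or marker lists, of which some genes are not reported here; a count outside this rule is named after its values were seen. The members and lists were chosen with earlier results of these data known. Replicate numbers coincided with scan day in the virus arms. Deviations of same-numbered arrays from their group means correlated at 0.39 to 0.68 in dnRARa tubules, 0.05 to 0.47 in Venus, 0.21 to 0.70 in untreated tubules and -0.10 to 0.14 among testis and Sertoli arrays, over 13403 genes. Tried as alternatives were scaling by quantiles or by the median, normexp (offset 50) on the median signal, the series values, no or stricter detection filters, averaged probes, a joint model, a fit to only the arrays compared, blocks for replicate number, scan day and slide, and leaving out each array.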

Additional observations from a re-analysis of the deposited data

How the results depend on the processing

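Of the alternatives, the series values gave the same numbers, and the Tmem255a rise with RA was past the threshold under every one run. Counts of members past the threshold moved as follows. Quantile scaling gave 2 for Venus against untreated in stages I-III (1 in the report). Normexp gave 2 for RA, 2 for stages IV-VI against I-III, 3 for I-III against IX-XII, 2 for Venus in I-III and 1 in IX-XII. Without a detection filter they were 2 for sorted WT cells against whole testes, 0 for I-III against IX-XII and 1 for dnRARa in IX-XII. With detection on every array they were 2 for cultured against sorted cells, 1 for VII-VIII against IV-VI, 0 for I-III against IX-XII, 0 for Venus in I-III and 1 in IX-XII. The mean of probes gave 3 for I-III against IX-XII, and scan day as a block gave 2. One model for all arrays gave 2 there, 1 for dnRARa in IX-XII and 3 for Venus in I-III. With only the arrays compared they were 4 for RA, 2 for sorted WT cells, 1 for N3KO against WT cells, 0 for IV-VI against I-III, 0 for I-III against IX-XII and 4 for Venus in I-III. Leaving out 1 array gave 0 to 4 for sorted WT cells, 2 to 5 for N3KO cells, 0 to 1 for I-III against IX-XII, 0 to 4 for dnRARa in I-III, 0 to 1 for dnRARa in IX-XII and 1 to 2 for Venus in IX-XII. The cause of these moves was not tested.

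Signs turned mostly where the difference was small. Olig1 in N3KO against WT cells became 0.66 with quantile scaling, 0.42 with median scaling and 1.15 with normexp. Tmem255a with Venus in IX-XII became 0.0058, 0.055 and 0.43 with quantile scaling, normexp and the mean of probes, and in cultured against sorted cells 0.88 with median scaling and 0.52 with the mean of probes, both past the threshold. With normexp Olig1 became 0.69 in IV-VI against I-III and -0.17 in IX-XII against VII-VIII, Sowahd 0.31 in VII-VIII against IV-VI, and Stbd1 and Olig1 0.15 and 0.0039 with Venus in I-III. With the mean of probes Oit3 became 0.13 with RA and 0.19 with Venus in IX-XII. Leaving out 1 array gave -0.20 to 0.53 for Oit3 and -0.19 to 0.51 for Tmem255a in sorted WT cells against whole testes, -1.30 to 1.33 for Sowahd and -0.88 to 0.58 for Olig1 in N3KO cells, -0.40 to 0.30 for Tmem255a in culture and -0.34 to 0.16 for Sowahd in VII-VIII against IV-VI. With Venus it gave -0.74 to 0.47 for Stbd1 and -0.66 to 0.0097 for Olig1 in I-III, and -0.42 to 0.36 for Tmem255a in IX-XII.

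With replicate number as a block the same numbers of members passed except in N3KO against WT cells, where 2 did and Stbd1 did not (adjusted p = 0.0521), and dnRARa in I-III called 31 genes (2 without the block, 28 with scan day as a block). Counts over all genes moved by over 1.5 times elsewhere too: RA called 1102 genes, 559 with normexp, 709 without the filter, 7236 with only the arrays compared and 365 to 378 without 1 array. dnRARa in IX-XII called 1078, 261 with normexp, 708 without the filter and 313 to 617 without 1 array. dnRARa in I-III called 34 with 1 model, 17 to 260 without 1 array, 1 with quantile or median scaling and 0 with normexp or only the arrays compared. Stages IV-VI against I-III called 4148, 6945 with normexp, 0 with only the arrays compared and 2325 to 3161 without 1 array, I-III against IX-XII 6359, 0 and 3682 with only the arrays compared and at the lowest without 1 array, VII-VIII against IV-VI 8112 and 3926 with normexp, and IX-XII against VII-VIII 9406 and 4422 with only the arrays compared. N3KO cells called 10914 and 4315 with only the arrays compared. Venus in I-III called 9494, 4807 with normexp and 5822 at the lowest without 1 array, and in IX-XII 9208, 4405 with normexp, 15022 without the filter, 3034 with only the arrays compared and 5975 at the lowest without 1 array. Signal over background limits Olig1 and Anxa13, and Oit3 and Sowahd with dnRARa, to bounds in several groups.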
